A study of Mus musculus with 3 samples.

Results

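The genes described here are the noncoding RefSeq genes that carried an NR code in a table of transcript models assembled from mouse testis. A model was taken when its code began with NR_R or NR_N, which gave 856 of the 50081 models in the table under 663 gene symbols. Of these models, 724 were RefSeq models (NR_R) and 132 were assembled models with a CUFF identifier and the symbol of a noncoding RefSeq gene (NR_N). The symbol was the unit of counting below except where models are named as counted, and the longest spliced model stood for it. Among the models taken, 571 symbols had RefSeq models only, 76 had both kinds, and 16 had CUFF models only. Further models of the same symbol with a code beginning XX were in the table for 29 symbols, and these models were not taken.

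The study's libraries were made from total RNA of wild-type C57BL/6J testes: CAGE, a method for capped RNA starts, at 10.5 days post partum and in adults, and PAS-Seq, a method for the ends at poly(A) tails, in adults with 100 nt reads. There were 3 libraries, 1 in each of 3 groups, and the transcript table covers the series as a whole and names no library. No value per library was analysed here, so the depth behind a model is unknown, no test between ages could be made, and values below are features of the models. What the codes mean was not given in the sources used here. An NR code is therefore not read as a measure of expression in testis, and an XX code is not read as its absence.

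Noncoding RNA genes include long noncoding RNAs and small nucleolar RNAs (snoRNAs). Long noncoding RNAs encode no known protein, and many but not all are spliced and polyadenylated like messenger RNAs. The snoRNAs guide the modification of ribosomal RNA and are usually cut from introns of a host gene. Many long noncoding RNAs start beside a coding gene on the opposite strand, so that both are read outward from 1 stretch of DNA, and others run antisense across a coding gene. Testis is known for transcribing many noncoding RNAs, most of them in meiotic and postmeiotic germ cells.

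Start regions of 5 head-to-head pairs are printed first, from the closest pair of all to one above the median distance, to show how the space between the starts differs in length and letters. Each sequence is from RefSeq on GRCm38.p6, reads 5′ to 3′ on the strand of the noncoding gene, and has in capitals the bases that lie between the 2 starts, with 20 bases in lower case on each side. The pairs were chosen after their values were seen. They are 4930473A02Rik with Mrps26, a mitochondrial ribosomal protein gene (chr2:130563730-130563776, minus strand); 1700027I24Rik with Acrv1, an acrosomal protein gene (chr9:36693170-36693239, minus strand); Snhg9 with Rps2, a ribosomal protein gene (chr17:24719946-24720082, minus strand); 1700027A15Rik with Tnp1, which encodes a transition protein that takes the place of histones in spermatids (chr1:73015880-73016055, plus strand); and 4931419H13Rik with Ccna1, which encodes the cyclin needed for male meiosis (chr3:55055036-55055261, plus strand).
4930473A02Rik and Mrps26: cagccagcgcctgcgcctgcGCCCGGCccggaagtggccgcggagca
1700027I24Rik and Acrv1: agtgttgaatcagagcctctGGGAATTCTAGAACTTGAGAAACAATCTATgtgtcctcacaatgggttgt
Snhg9 and Rps2: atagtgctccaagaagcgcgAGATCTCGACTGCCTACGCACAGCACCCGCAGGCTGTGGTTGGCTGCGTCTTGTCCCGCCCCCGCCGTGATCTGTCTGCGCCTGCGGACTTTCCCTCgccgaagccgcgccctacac
1700027A15Rik and Tnp1: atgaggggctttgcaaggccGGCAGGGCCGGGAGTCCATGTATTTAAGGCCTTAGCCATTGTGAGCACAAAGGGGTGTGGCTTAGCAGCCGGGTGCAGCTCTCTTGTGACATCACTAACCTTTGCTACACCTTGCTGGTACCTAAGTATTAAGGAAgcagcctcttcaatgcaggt
4931419H13Rik and Ccna1: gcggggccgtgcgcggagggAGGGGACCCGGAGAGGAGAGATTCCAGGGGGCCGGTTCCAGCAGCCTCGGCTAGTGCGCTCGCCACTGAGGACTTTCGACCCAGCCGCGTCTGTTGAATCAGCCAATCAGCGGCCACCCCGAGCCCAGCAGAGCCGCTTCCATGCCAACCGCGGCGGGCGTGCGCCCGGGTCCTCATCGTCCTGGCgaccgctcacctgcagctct

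The stretches differ in length and composition. The starts of 4930473A02Rik and Mrps26 leave 7 bases between them, and the printed stretch holds 7 CG dinucleotides in 47 bases. Between 1700027I24Rik and Acrv1 lie 30 bases, and the stretch of 70 bases holds 0 CG with a G and C share of 41.4%. Snhg9 and Rps2 are parted by 97 bases, and their stretch of 137 bases holds 15 CG. For 1700027A15Rik and Tnp1, 136 bases lie between the starts and the 176 bases printed hold 3 CG. For 4931419H13Rik and Ccna1, the 186 bases between the starts and their flanks hold 24 CG with a G and C share of 70.4%. The distances in the transcript table, whose coordinates are mm9, were 8, 31, 98, 137 and 187 bp for the same pairs, each 1 more than the bases between the starts.

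By the form of their names, 374 of the 663 symbols were RIKEN clones, 120 were Gm-numbered gene predictions, 58 were snoRNAs or scaRNAs (the small RNAs of Cajal bodies), 48 had other gene names, 38 were LOC numbers or expressed sequences, 11 were snoRNA host genes, 9 were named as pseudogenes and 5 as antisense transcripts. The 5 antisense names were Dnm3os, Fam120aos, Nespas, Peg3as and Ppifos. A current RefSeq annotation (GRCm38.p6, used for names and gene types) matched 616 symbols by accession, 22 by symbol and 16 by an older symbol, and left 9 unmatched. It types 456 of the 663 symbols as lncRNA (68.8%, exact 95% interval 65.1 to 72.3), 93 as transcribed pseudogenes (14.0%), 53 as snoRNA and 33 as protein-coding (4.98%). Intervals here and below are Clopper-Pearson intervals and cover counting error only. Of the Gm-numbered symbols, 61 are now typed as lncRNA and 52 as transcribed pseudogenes. The 33 now typed as coding include Aldoart2, an aldolase retrogene, Ube2dnl1, a gene related to ubiquitin-conjugating enzymes, and Rhno1, a DNA damage checkpoint gene. For these genes the noncoding accession describes the model in the table, not the gene.

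The share of noncoding RefSeq models that carried the code NR_R rather than XX_R differed with the kind of name. Models were counted here and not symbols, so the intervals take models of 1 gene as separate. The 724 models coded NR_R fell under 647 symbols. Over all kinds it was 724 of 2304 (31.4%, interval 29.5 to 33.4), and without microRNA names it was 724 of 1709 (42.4%, interval 40.01 to 44.7). All 11 models with noncoding accessions named as snoRNA hosts were coded NR_R (interval 71.5 to 100). Snhg11, which is named as a host and was coded XX, is not in this count. RIKEN clones had 426 of 880 (48.4%, interval 45.1 to 51.8), other named genes 59 of 135 (43.7%), snoRNAs and scaRNAs 48 of 112 (42.9%), LOC numbers and expressed sequences 39 of 98 (39.8%) and Gm-numbered genes 127 of 379 (33.5%, interval 28.8 to 38.5). Pseudogenes by name had 9 of 63 (14.3%) and antisense transcripts by name 5 of 31 (16.1%). A further 233 models with noncoding accessions were coded NM_R and are left out of all these shares. They were 195 of other named genes, 21 of pseudogenes by name, 12 of RIKEN clones, 4 with names that end like antisense names and 1 of the LOC kind. The order of the kinds thus holds only among models coded NR_R or XX_R. Kinds go by the form of the name alone, and a coding gene such as Gnas also has an ending of the antisense kind. The 4 models were therefore not shown to be antisense transcripts. None of 595 microRNA models was coded NR_R, which allows a share of up to 0.618%. Among RefSeq models with coding accessions, 17177 of 25494 (67.4%) were coded NM_R.

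**Figure D1:**
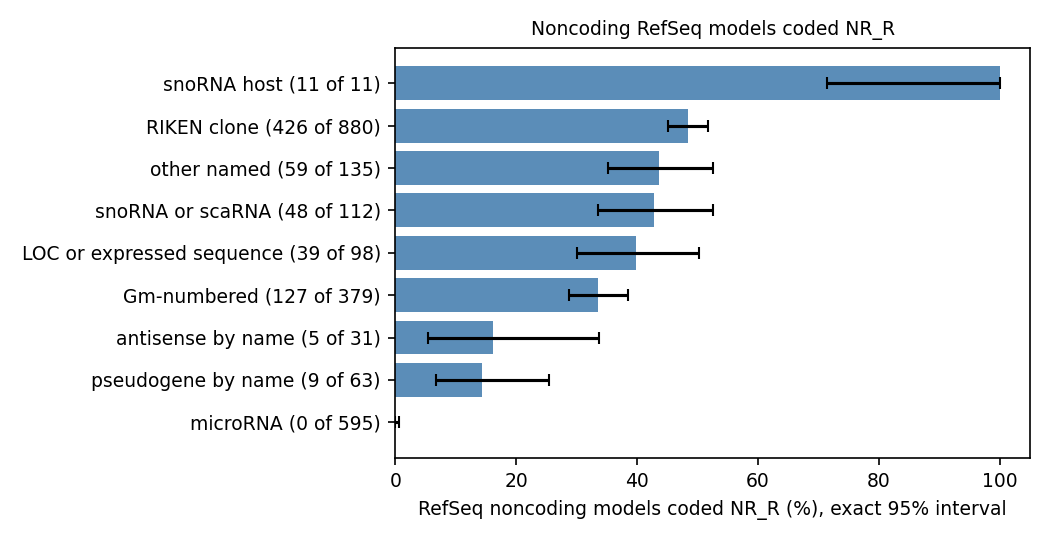
Share of noncoding RefSeq models coded NR_R rather than XX_R, in percent, by the form of the gene's name. Bars are shares and lines are exact 95% intervals for counting error. The 11 snoRNA host models counted, which do not include Snhg11 (coded XX), fill the axis, and microRNAs have 0 of 595. Models with noncoding accessions coded NM_R are left out.

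RIKEN clone names carry a number for the cDNA library they came from, and 6 of these prefixes were taken as those of testis libraries, among them those of 1700027I24Rik, 4930473A02Rik and 4931419H13Rik. With these prefixes 233 of 365 models were coded NR_R (63.8%, interval 58.7 to 68.8), against 193 of 515 with other prefixes (37.5%, interval 33.3 to 41.8). These intervals do not overlap. Single prefixes varied. The 6 testis prefixes ran from 5 of 11 (45.5%) to 5 of 6 (83.3%), and some small sets with other prefixes were as high, such as the prefix of 0610007N19Rik with 10 of 13 (76.9%). Testis-library prefixes named 208 of the 663 symbols.

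The noncoding genes were short and had few exons. The median spliced length was 1258 nt (quartiles 707 and 2246.5, range 30 to 14357), the median genomic span 6500 bp, the median exon number 3 (quartiles 1.5 and 4) and the median last exon 712 nt. Leaving out snoRNA and scaRNA names raised the median length to 1356 nt (quartiles 781 and 2375) and the span to 7533 bp over 605 symbols. Coding genes coded NM_R had a median of 2684 nt (quartiles 1667 and 4093), 21538 bp and 9 exons over 13175 symbols. Noncoding genes coded XX alone, without microRNA and snoRNA names, had 1581 nt (quartiles 929 and 2500) and 3 exons over 813 symbols. The quartile ranges of the NR and XX genes thus largely overlapped, while the upper quartile of the NR genes lay below the coding median. These differences were described and not tested.

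A single exon made up the longest model of 166 of the 663 symbols (25%, interval 21.8 to 28.5), or 120 of 605 without snoRNA and scaRNA names (19.8%, interval 16.7 to 23.2). The XX genes had 135 of 813 (16.6%), and coding genes 530 of 13175 (4.02%). There were 98 symbols with 2 exons, 143 with 3, 95 with 4, 67 with 5 and 94 with 6 or more, of which 30 had 10 or more. Lengths under 200 nt were found for 45 symbols and for 0 of the coding genes.

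Length varied with the kind of name. RIKEN clones had a median of 1181 nt and 15% single-exon models, Gm-numbered genes 1589.5 nt and 28.3%, other named genes 2597 nt and 41.7%. Genes named as snoRNA hosts were the shortest of the spliced kinds, with a median of 606 nt in 4 exons. The median for snoRNA and scaRNA symbols was 119 nt, with 46 of 58 in a single exon.

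**Figure D2:**
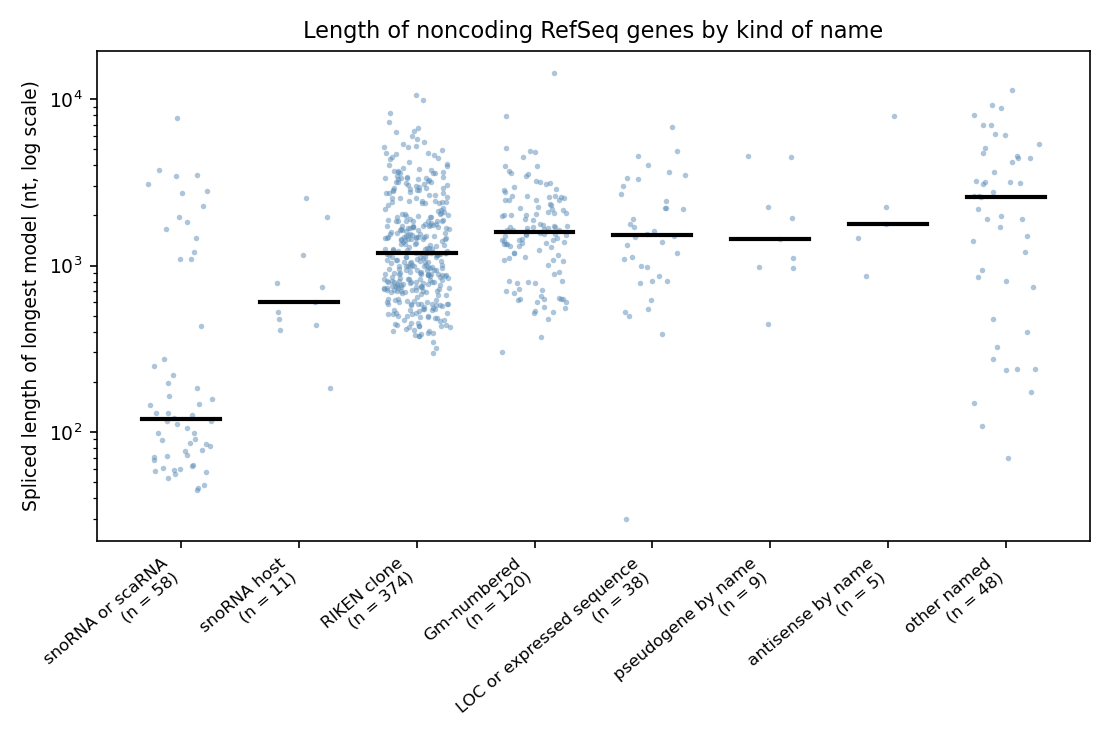
Spliced length in nt, on a log scale, of the longest model of each of the 663 symbols, by the form of the name. Each point is a symbol and bars are medians, which run from 119 nt for snoRNAs and scaRNAs to 2597 nt for other named genes.

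The longest model was Gm6300, with 14357 nt in 1 exon (chr3:14363210-14377566, plus strand, mm9 as for all positions below). Meg3, an imprinted gene, followed with 11422 nt, then 1700003G18Rik with 10523 nt, 5830417I10Rik with 9833 nt, Ppp1r12b with 9224 nt and Ankrd11 with 8816 nt. After these came 1700020I14Rik (8290 nt), Tbrg3 (7979 nt), Dnm3os (7928 nt) and Gm3414 (7912 nt). The long 1700003G18Rik model was a CUFF model of 21 exons over 623518 bp, the widest span among the symbols. It shared 8079 exon bases with Sox6, a transcription factor gene, on the same strand, while the RefSeq model of 1700003G18Rik had 4 exons, 620 nt and a span of 11388 bp. Most of the length of this CUFF model was thus in exons of Sox6. The Ppp1r12b model was a CUFF model too, with 24 exons. It shared only 17 exon bases with the noncoding RefSeq model of that symbol, which had 2 exons and 2942 nt.

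At the other end were AF357359 with 30 nt and the snoRNAs Snord42a (45 nt), Snord64 (46 nt), Snord68 (48 nt) and Snord37 (53 nt). The most exons were in Abca16 (30), Scarna9 (28), BC090627 (27), Efcab8 (26) and 6720401G13Rik (24). Abca16 and Efcab8 are now typed as protein-coding, and the Scarna9 model was a CUFF model that ran over 5830418K08Rik.

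One model was present for 533 symbols and 2 or more for 130 (19.6%, interval 16.7 to 22.8). The most models, 7, belonged to 2210408F21Rik (chr6:31169904-31288343, plus strand). Its 6 RefSeq models shared a start at 31170351 and an end at 31287394 and had 5 to 8 exons and 597 to 1012 nt, and its CUFF model had 6 exons and 2046 nt. There were 5 models each for 1700024P03Rik, 1700026D11Rik, 4930412O13Rik and 9430008C03Rik. Over the 129 symbols with 2 or more models on 1 strand of 1 chromosome, the mean was 1.63 starts (SD 0.626) and 1.66 ends (SD 0.580), when positions within 50 nt were counted as 1. More ends than starts were found for 28 symbols, more starts than ends for 23, and equal numbers for 78. With positions within 20 nt counted as 1 the order turned, with more starts for 26 symbols, more ends for 23 and means of 1.71 starts and 1.68 ends.

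Where a CUFF model and a RefSeq model of 1 symbol could be set side by side, the ends often differed. No CUFF model matched its RefSeq model in start, end, exon number and length at once. The counts below thus describe models that differ from RefSeq in some way. They do not give how often ends differ over all genes, as 571 of the 663 symbols had RefSeq models only. Of 109 CUFF models whose names are not snoRNAs or scaRNAs, 102 shared exon bases with a RefSeq model of the symbol. The CUFF start lay within 50 nt of the RefSeq start in 37, upstream in 44 (median 207 bp) and downstream in 21 (median 4480 bp). For ends, 30 lay within 50 nt, 38 downstream (median 1175 bp) and 34 upstream (median 3214 bp). The CUFF model was the longer in 66 and the shorter in 36, with a median of 1677.5 nt against 1343 nt for the RefSeq models. The 1700020I14Rik CUFF model ended 6741 bp past its RefSeq end, and the CUFF model of Tug1, a long noncoding RNA gene studied in germ cells, started 2582 bp upstream of its RefSeq start.

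Placed against coding genes coded NM_R, the 663 symbols fell into exclusive classes in a fixed order. Exons overlapped coding exons on the same strand in 33 (4.98%) and on the opposite strand in 124 (18.7%). A further 78 (11.8%) stood head to head with a coding gene, 62 (9.35%) ran antisense over introns alone, and 42 (6.33%) lay inside a coding intron on the same strand. Within 5000 bp of a coding gene lay 81 more (12.2%). The other 243 (36.7%, interval 33 to 40.4) were farther away, with a median gap of 54816 bp and a largest gap of 2350720 bp.

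A head-to-head coding partner, on the opposite strand with a start 1 to 500 bp away and diverging, was found for 102 of the 663 symbols (15.4%, interval 12.7 to 18.4), against 9.77% of coding genes. Without snoRNA and scaRNA names it was 100 of 605 (16.5%, interval 13.7 to 19.7), against 6.77% of the noncoding genes coded XX (55 of 813, interval 5.14 to 8.71). Since coding neighbours can carry XX codes too, the shares were also taken with coding RefSeq partners of any code. They were then 17.4% for the NR genes, 8.73% for the XX genes and 10.2% for coding genes. The interval of the NR genes lay above both others in each setting, and the differences between the sets were not tested.

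**Figure D3:**
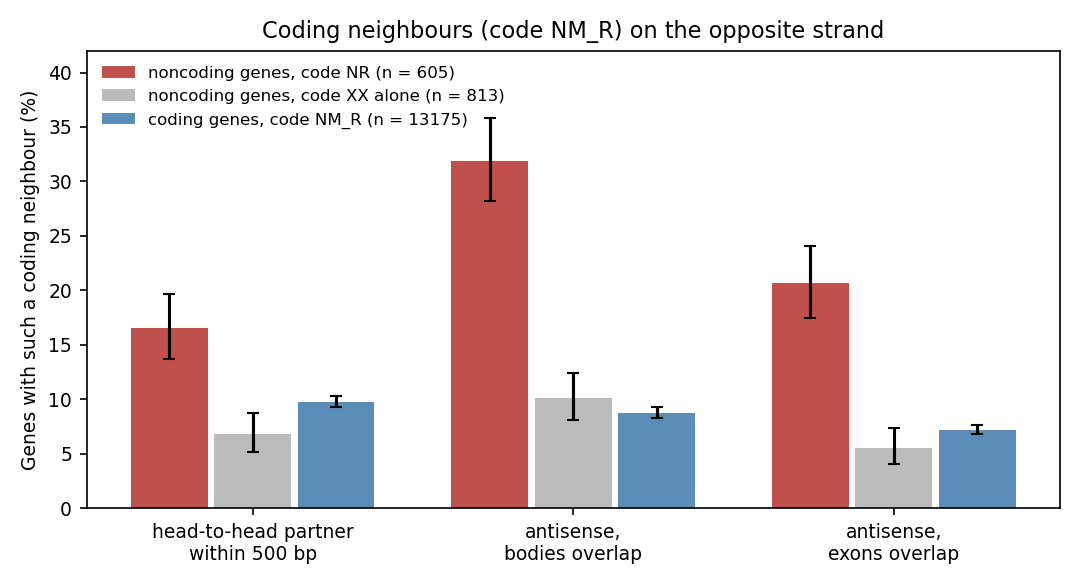
Percent of genes with a coding gene (code NM_R) head to head within 500 bp, antisense with overlapping bodies, and antisense with overlapping exons, for 605 noncoding genes coded NR, 813 coded XX alone and 13175 coding genes. snoRNA, scaRNA and microRNA names are left out. Lines are exact 95% intervals for counting error, and the NR bar is the highest in each group.

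Each of the 102 head-to-head genes had 1 coding partner, and a partner was shared only by Snhg9 and Snora78, a snoRNA in its intron, which both face Rps2. Start distances ran from 8 to 497 bp with a median of 140 (quartiles 93.25 and 189.25). Of the pairs, 32 lay within 100 bp, 47 more within 200 bp, 11 within 300 bp, 8 within 400 bp and 4 within 500 bp. Widening the limit to 1000 bp added 4 genes. The head-to-head genes had a median length of 1359.5 nt and 3 exons, which is close to the median of all 605.

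**Figure D4:**
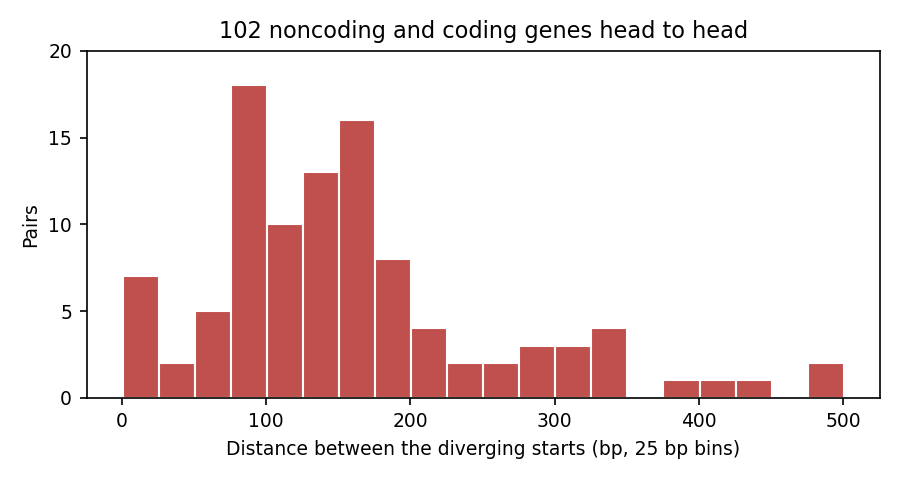
Number of head-to-head pairs by the distance in bp between the diverging starts, in 25 bp bins, for 102 noncoding genes. Most pairs lie under 200 bp, and 4 lie above 400 bp.

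The 10 closest pairs began with 4930473A02Rik (chr2:130369527-130389485, minus strand, 9 exons, 1409 nt) at 8 bp from Mrps26, whose start region is printed above. Next were 2810001G20Rik at 12 bp from Cox10, needed to make the haem of cytochrome oxidase, 2810002D19Rik at 18 bp from Ttc17, and Gm2518 at 18 bp from Tmem179b. AI314831, now named Wt1os (chr2:104916695-104966667 for its RefSeq model, minus strand, 7 exons, 3267 nt) started 19 bp from Wt1, a transcription factor of gonad development that marks Sertoli cells. Its CUFF model started further out and overlapped Wt1 exons by 63 bp. 0610012G03Rik was 25 bp from Ncbp2, a subunit of the nuclear cap-binding complex, and D330023K18Rik 25 bp from Gpr107. 1700027I24Rik (chr9:36476441-36500774, minus strand, 4 exons, 696 nt) was 31 bp from Acrv1. 4930570G19Rik was 48 bp from Negr1, a neural cell adhesion gene, and BC020402 51 bp from Lats1, a kinase of the Hippo pathway.

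Among the wider pairs, 4 were picked because the partner is known from germ cells or testis. 1700027A15Rik (chr1:73062610-73072082, plus strand) had RefSeq models of 342 and 416 nt, and the one with the outer start lay 137 bp from Tnp1. 4931419H13Rik (chr3:54859164-54887924, plus strand, 8 exons, 973 nt) lay 187 bp from Ccna1. 1700072B07Rik (chr9:58218311-58221990, plus strand, 445 nt) lay 135 bp from Tbc1d21, and 4930564K09Rik (chr3:82680627-82747560, plus strand, 3252 nt) lay 222 bp from Rbm46, which encodes an RNA-binding protein of germ cells. Other pairs held noncoding RNAs with known roles. Rpph1, the RNA of RNase P, was 175 bp from Parp2, a DNA repair enzyme, Rmrp, the RNA of RNase MRP, was 306 bp from Ccdc107, and Rnu12, a minor spliceosome RNA, was 309 bp from Poldip3. Snhg1 was 118 bp from Slc3a2 and Snhg10 410 bp from Glrx5. These pairs beyond the 10 closest were picked after their values were seen.

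Promoter windows of 300 bases, 250 before the start and 50 from it, were on hand from RefSeq for 402 of the 663 genes (434 windows). Of the 102 head-to-head genes, 77 had a window. In 62 pairs both genes had windows with starts that diverged within 500 bp on GRCm38.p6 as well, and 37 of those had the same distance as in mm9. CG dinucleotides numbered a median of 34.5 in these 62 windows (quartiles 25 and 41, range 1 to 57). The windows of the head-to-head genes, other starts of the same genes included, had a median of 30 CG, against 6 in the windows of the other noncoding genes. All protein-coding windows had a median of 13, and all lncRNA windows 4. Where the starts lie within 250 bp, the window also covers the start of the coding partner, so its CG count is not that of the noncoding gene alone.

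The head-to-head windows were not all rich in CG. Under 10 CG were found in 5 of the 62. The 1700027I24Rik and Acrv1 window held 1, the 1700072B07Rik and Tbc1d21 window 1, and the 1700027A15Rik and Tnp1 window 8. By contrast the 4931419H13Rik and Ccna1 window held 34 and the 4930473A02Rik and Mrps26 window 40.

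**Figure D5:**
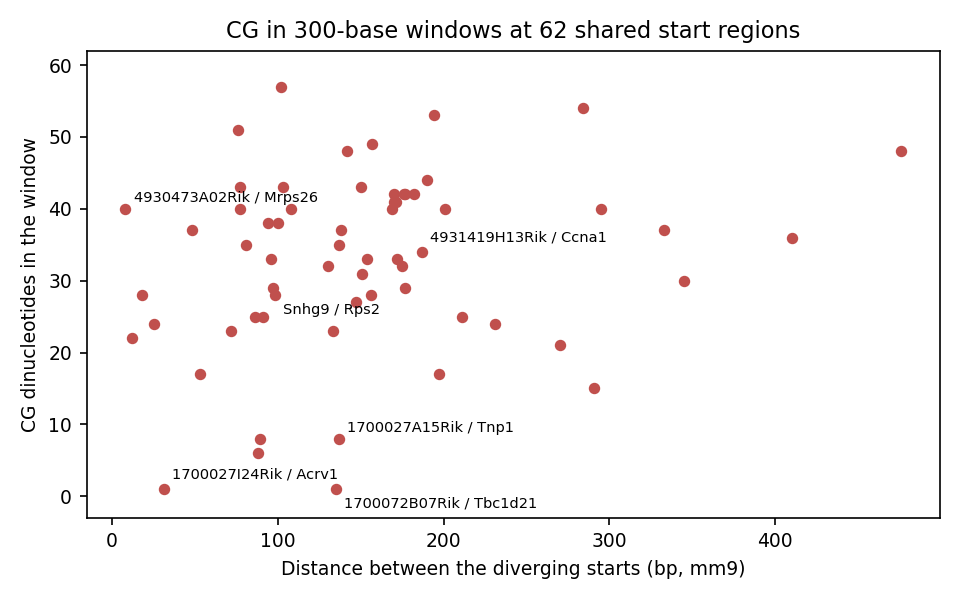
CG dinucleotides in the 300-base window at the noncoding gene's start (GRCm38.p6) against the distance in bp between the diverging starts in mm9, for 62 pairs. Each point is a pair, and most lie above 20 CG, with the Acrv1, Tbc1d21 and Tnp1 pairs under 10.

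Letters of 6 motifs were searched on both strands of each window. AACNG, the core of MYB sites, was in 80.6% of the 434 windows and in 80.3% of all 32851 RefSeq windows. AACTG, which is 1 form of AACNG, was in 48.6% against 44.8%. TGACGTCA, the cAMP response element, was in 2.76% against 1.79%, GTTGCC, part of the RFX site, in 15.7% against 12.5%, CCAAT in 43.1% against 37.4%, and TATAAA in 10.8% against 13.6%. The 32851 windows were 21263 of protein-coding genes and 11588 of lncRNA genes. In the lncRNA windows alone, AACNG was in 82.5%, AACTG in 50.5% and TGACGTCA in 0.975%. There GTTGCC was in 12.3%, CCAAT in 36.0% and TATAAA in 15.5%. AACTG was in 22.4% of the head-to-head windows and in 55.0% of the other noncoding windows, and these sets differ in their G and C share as well (medians 66.7% and 51.0%). In the printed stretches, that of 4931419H13Rik and Ccna1 held 3 AACNG and 1 CCAAT, and the other 4 held neither. A match gives letters only and not a bound site.

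Bodies of 194 of the 663 genes overlapped a coding gene on the opposite strand (29.3%, interval 25.8 to 32.9), against 8.77% of coding genes. Without snoRNA and scaRNA names it was 193 of 605 (31.9%, interval 28.2 to 35.8), against 10.1% of the XX genes (interval 8.10 to 12.4). With coding partners of any code the shares were 33.9% for the NR genes, 19.9% for the XX genes and 9.90% for coding genes, so the gap between NR and XX genes narrowed but their intervals (30.1 to 37.8 and 17.2 to 22.8) stayed apart. Exons overlapped in 126 of 663 (19%, interval 16.1 to 22.2), against 7.22% of coding genes. Without snoRNA and scaRNA names it was 20.7%, against 5.54% of the XX genes, and with coding partners of any code it was 22.1%, against 12.8% of the XX genes and 7.99% of coding genes. In all, 268 genes had a head-to-head or an antisense coding neighbour, and 23 had both a head-to-head partner and an antisense exon overlap.

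Of the 126 genes with exon overlap, 57 overlapped at the heads, where the 5′ parts of both genes cross. In 43 the tails crossed, in 21 the noncoding gene lay within the coding gene, and in 5 the coding gene lay within the noncoding one. The overlap was a median of 217.5 bp (quartiles 113 and 483.5, range 15 to 2612), which was 13.8% of the noncoding model (quartiles 5.87 and 29.0). Most overlaps thus covered a small part of the noncoding RNA.

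The largest overlaps were the exception, and the first 7 were all tail to tail. 1110002L01Rik (chr12:3403883-3426747, minus strand) overlapped Kif3c, a kinesin motor gene, by 2612 bp or 79.2% of its length. Zim3, an imprinted zinc finger gene (chr7:6908397-6929373, minus strand), overlapped Usp29 by 2582 bp (80.1%). 4833422C13Rik overlapped Ssbp2 by 2377 bp (84.1%), and A130049A11Rik overlapped Rsbn1, a gene of round spermatids, by 2085 bp (55.1%). 1500017E21Rik overlapped Hectd2 by 1718 bp (64.5%), LOC100503496 overlapped Slc16a6 by 1598 bp (90.0%), and BB031773 overlapped Tctex1d1 by 1454 bp (39.8%). A230073K19Rik, a single exon of 7288 nt, lay within Ube3a, an imprinted ubiquitin ligase gene, and overlapped its exons by 1132 bp (15.5%). 9330151L19Rik overlapped Dnaaf2, which helps assemble the dynein arms of cilia and flagella, by 1107 bp (43.5%), and Etohd2 overlapped Zcchc6, which adds uridines to RNA, by 981 bp (31.3%). Peg3as, chosen after its values were seen, was 865 nt long and lay in full within Peg3 exons. The sources used here do not say whether reads were assigned by strand, so signal of overlapping exons cannot be told apart here.

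Same-strand overlap with coding exons was found for 33 genes, 21 of them without snoRNA or scaRNA names (3.47% of 605, interval 2.16 to 5.26), against 1.5% of coding genes and 0.369% of the XX genes. These shares count partners coded NM_R alone. They were not taken with coding partners of any code, so overlaps of XX genes with coding genes coded XX are missed. Several of the 33 genes were Gm-numbered models: Gm15772 over Rpl26, Gm12191 over Rpl30, Gm5643 and Gm10052 over Hnrnpa1, and Gm6644 over Akr1b3. Such models lie where a coding gene is read, and their identity as separate noncoding RNAs is uncertain. Same-strand exon overlap with models named for piRNA precursors was found for 6 of the 663 genes (0.905%, interval 0.333 to 1.96), against 0.0911% of coding genes. Without snoRNA and scaRNA names it was 6 of 605 (0.992%, interval 0.365 to 2.15), against 1.85% of the XX genes (interval 1.04 to 3.02). The piRNAs are small RNAs of germ cells cut from long precursors. Most of these models were covered nearly in full. All exon bases were shared by AI414108 (4859 with pi-Igsf9b), 6430706D22Rik (3638 with pi-Hjurp) and B130006D01Rik (3188 with pi-Zfp652). Ankrd11 shared 8786 with pi-Ankrd11, and the 9224 nt CUFF model of Ppp1r12b shared 8843 (95.9%) with pi-Ppp1r12b. That CUFF model shared only 17 exon bases with the noncoding RefSeq model of Ppp1r12b. Gm2762 shared 1247 (53.3%) with a precursor named for its chromosome band. Head to head with such models stood B230319C09Rik, 147 bp from pi-Tet3, Gas5, 339 bp from pi-Zbtb37, and the 4 CUFF models named Snord47, which overlie the Gas5 locus, 39 bp from pi-Zbtb37.

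The snoRNA host genes were the list with the largest share coded NR. These genes carry snoRNAs in their introns, and their spliced RNA is often short-lived. List genes were looked up by the name in the table and by the current RefSeq name of each accession. Of 17 hosts in the table, 15 were coded NR. These were Gas5, Snhg1, Snhg3 to Snhg10 and Snhg12 under those names, and 4 under clone names: Snhg17 (9430008C03Rik), Snhg18 (0610007N19Rik), Epb41l4aos (2410004N09Rik) and Dancr (2700023E23Rik). Snhg11 was coded XX, and Zfas1 (1500012F01Rik) had a coding code. RefSeq models ran from 183 nt for Snhg9 to 3159 nt for Snhg17, with 2554 nt for Gas5, 1483 nt for Snhg18, 1036 nt for Dancr and 407 nt for Snhg6. Snhg1 had the most exons, 10 in 476 nt. Snhg5 had CUFF models of 1754 and 1960 nt beside its RefSeq model of 1010 nt. Snhg18 stood head to head with Sema5a, an axon guidance gene, at 151 bp.

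The snoRNAs and scaRNAs themselves were placed within such hosts. Their 48 RefSeq models had a median of 90 nt (quartiles 64.5 and 126.75, range 45 to 273). In an intron of another gene on the same strand lay 44 of them (91.7%, interval 80.0 to 97.7), with 36 distinct intron hosts. Ribosomal protein genes held 17 in 14 hosts, such as Snord15a and Snord15b in Rps3, Snora33 and Snord100 in Rps12, and Snord33 and Snord35a in Rpl13a. Noncoding genes of the set held 11 in introns of 8 hosts. 2410006H16Rik held Snord49a, Snord49b and Snord65, and Snhg12 held Snora44 and Snord99. Snord47 lay in Gas5, Snord22 in Snhg1, Snora17 in Snhg7 and Scarna13 in Snhg10. Counting introns and exons, 45 of the 48 lay in a same-strand host (93.8%, interval 82.8 to 98.7). The same count for the snoRNA and scaRNA models coded XX was 57 of 64 (89.1%, interval 78.8 to 95.5), and the intervals overlap.

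Models with CUFF identifiers and snoRNA names were of another kind. There were 23, with a median of 1840 nt and 6 exons. In 13 the snoRNA lay only within the body of the model, in 8 it met an exon, and in 2 it lay outside. The Snord11 model had 15 exons and 1966 nt over Nop58, and the Snora75 model 13 exons and 3098 nt over Ncl, both genes of nucleolar proteins. The Scarna3a model lay 106532 bp away from the scaRNA, over Rfwd2. The shortest of the 23, at 432 nt, was longer than any RefSeq snoRNA or scaRNA model of the set.

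Among imprinted noncoding RNAs, which are read from the chromosome of 1 parent, 6 of the 11 in the table were coded NR. H19 was 1 exon of 2615 nt (chr7:149761437-149764051, minus strand). Meg3 had 3 models of 11410, 1913 and 11422 nt (chr12:110779206-110809939, plus strand). Rian, downstream of Meg3, had a RefSeq model of 21 exons and 3579 nt and a CUFF model of 20 exons and 4436 nt. Airn, which runs antisense to Igf2r, had 4 models of 413 to 1399 nt that shared 1 start at chr17 position 12934177 and spanned 74247 to 118574 bp. Nespas had 5 exons and 2248 nt and overlapped Gnas exons by 111 bp at the heads. Snhg14, which runs antisense toward Ube3a, was present as C230091D08Rik (3 exons, 3708 nt) and D7Ertd715e (3 exons, 2193 nt). Mirg, Kcnq1ot1, Peg13, Nctc1 and Igf2as were coded XX.

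Of nuclear and other well-studied long noncoding RNAs, 4 of 5 in the table were coded NR. Malat1 was 1 exon of 6982 nt (chr19:5795690-5802671, minus strand) and Neat1, the scaffold of paraspeckles, 1 exon of 3177 nt (chr19:5842302-5845478, minus strand). Pvt1 had 9 exons and 3074 nt over 212989 bp. Cyrano was present as 1700020I14Rik, with RefSeq models of 1380 and 1549 nt and CUFF models of 8121 and 8290 nt from the same start, and Miat was coded XX. The mixed list of telomere, RNase and signal recognition RNAs gave 3 of 4, with Terc at 397 nt, Rmrp at 275 nt and Rpph1 at 325 nt, while Vaultrc5 was coded XX. None of 4 X-inactivation genes (Xist, Tsix, Jpx and Ftx) was coded NR. Of 10 antisense RNAs of homeobox clusters and developmental genes, 1 was, Wt1os, which is AI314831 in the table, and 9 were coded XX. These lists are short. Among noncoding symbols coded NR or XX, without microRNA, snoRNA and scaRNA names, the share coded NR was 42.7% (605 of 1418).

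No microRNA model was coded NR, yet 23 of them lay within noncoding genes of the set on the same strand, 9 in exons of 5 genes and 14 in introns of 7 genes. MicroRNAs silence messenger RNAs by pairing through their seed, bases 2 to 8. The mature sequences below are from RefSeq (GRCm38.p6) and are shown because these hosts hold microRNAs whose seeds recur in another host, the seed being in capitals. Dleu2 (chr14:62221673-62301210, minus strand, 7 exons, 1694 nt) holds Mir15a and Mir16-1 in an intron. C430049B03Rik (chrX:50406289-50410367, minus strand, models of 2707 and 2993 nt) holds Mir322, Mir503 and Mir351 in exons. 2610203C20Rik (chr9:41389422-41400570, plus strand, 2578 nt) holds Mir125b-1 in an intron.
mmu-miR-15a-5p: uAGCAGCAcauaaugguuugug
mmu-miR-16-5p: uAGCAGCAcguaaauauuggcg
mmu-miR-322-5p: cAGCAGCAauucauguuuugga
mmu-miR-503-5p: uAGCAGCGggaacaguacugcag
mmu-miR-351-5p: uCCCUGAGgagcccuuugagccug
mmu-miR-125b-5p: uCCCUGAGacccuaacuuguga

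The seed AGCAGCA is shared by miR-15a-5p and miR-16-5p of Dleu2 and miR-322-5p of C430049B03Rik. The seed CCCUGAG is shared by miR-351-5p of C430049B03Rik and miR-125b-5p of 2610203C20Rik, so the C430049B03Rik host on the X chromosome carries both seeds. The seed of miR-503-5p, AGCAGCG, differs from AGCAGCA in its last base and is shared by no other microRNA printed. Other hosts were Dnm3os with Mir199a-2 and Mir214, H19 with Mir675, Meg3 with Mir770 and Mir1906-1, and A230057D06Rik with 5 members of the Mir344 family.

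By chromosome, 22 of the 663 symbols were on X (3.32%, interval 2.09 to 4.98) and 0 on Y. Without snoRNA, scaRNA and microRNA names, X held 21 of 605 (3.47%, interval 2.16 to 5.26), against 40 of 813 XX genes (4.92%, interval 3.54 to 6.64) and 4.02% of coding genes, and these intervals overlap. Chromosome 2 held the most symbols, 59 (8.90%, interval 6.84 to 11.3), against 7.80% of coding genes. Chromosome 13 held 10 (1.51%, interval 0.726 to 2.76), below its 3.76% of coding genes, a chromosome picked after its value was seen. Without snoRNA, scaRNA and microRNA names it held 1.65% of the NR genes (interval 0.795 to 3.02) and 2.46% of the XX genes (interval 1.51 to 3.77). These 2 intervals overlap, so a low share is not particular to the NR genes.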

How the data were processed

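CAGE and PAS-Seq reads from testis were processed by the submitters with TopHat2 2.0.4 and the mm9 build, per the submitters' processing notes. How models were assembled, filtered and coded, and how reads set starts and ends, was not given in the sources used here. The authors deposited 1 headerless table of 12 columns with positions, exon lengths and codes, which holds no read number or level. Models were grouped by symbol, and all coordinates were made 1-based. Neighbours were coding models coded NM_R with another symbol, head to head when diverging starts lay 1 to 500 bp apart and antisense when bodies or exons shared at least 1 bp. Promoter letters and microRNAs came from RefSeq (GRCm38.p6) by symbol or accession, and CCAAT was added to the motifs after the others had been searched. Python 3.11.15, pandas 2.3.3, numpy 2.4.6 and scipy 1.17.1 were used, and the neighbour search was tested on simulated data. With features of 1 table and 1 library a group, no test was run.

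Named genes were the members of 6 gene lists (matched by name or current RefSeq name), the 10 closest head-to-head pairs, the 10 largest antisense exon overlaps, the 5 symbols with the most models, the 10 longest, the 5 shortest and the 5 with the most exons. Any other gene was picked with its values in view. The members and lists were chosen with earlier results of these data known. Alternatives were a 1000 bp limit, an overlap of 100 bp, other partner codes, NR_R models alone, every model counted, leaving out snoRNA and scaRNA names, and a 20 nt tolerance for ends.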

Additional observations from a re-analysis of the deposited data

How the results depend on the processing

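The share of symbols with a single-exon longest model moved from 25% to 19.8% when snoRNA and scaRNA names were left out. With coding partners of any code, counts of noncoding genes coded XX rose from 82 to 162 for antisense bodies and from 45 to 104 for antisense exons, an alternative chosen after seeing the data. Member counts stayed within 1.5 times the main count, and medians stayed within the quartiles of the main set. The head-to-head count of 102 ranged from 98 (NR_R models alone, also chosen after seeing the data) to 127 (starts within 500 bp on either side). The antisense count of 194 ranged from 188 to 215, and the exon-overlap count of 126 from 100 to 147. The median length of 1258 nt ranged from 1192 to 1356 nt. With NR_R models alone, 724 models under 647 symbols were left. The depth of the libraries is unknown, models are not replicates, and intervals cover counting error only. No paired analysis was possible because each group has 1 library and the table holds no value per library.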
